A study of Mus musculus with 17 samples.

Results

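Loss of DNMT3L was compared directly with loss of PLD6 in leptotene/zygotene (L/Z) spermatocytes of the mouse, the early meiotic germ cells in which homologous chromosomes begin to pair. The comparison held 4 libraries of the 17 in the series, 2 from Dnmt3L KO and 2 from Pld6 KO mice, chosen by their genotype labels alone. The cells were sorted by FACS from C57BL6/J males at 3 to 4 weeks after birth, and polyA RNA was sequenced as 50-bp single-end reads with the TruSeq stranded kit. The labels name no conditional allele or Cre driver for either line, and both lines had been backcrossed to C57BL/6J. No control genotype entered either side of the contrast, and the 2 WT libraries of the same cells are given as a reference level. These WT libraries also entered the estimate of spread between libraries. Newborn (P0) testes of the same genotypes, 2 Dnmt3L KO and 4 Pld6 KO libraries, served for comparison. The P0 series also held 2 WT libraries and 3 from mice lacking both genes (DKO), which entered the estimate of spread. The labels call the libraries biological replicates, without saying whether each came from 1 animal.

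PLD6 is a mitochondrial outer membrane protein needed to make piRNAs, the small RNAs that guide PIWI proteins to retrotransposon transcripts. DNMT3L has no catalytic activity of its own and stimulates the de novo DNA methyltransferases that methylate retrotransposons and imprinted loci in fetal male germ cells. IAP elements are endogenous retroviruses flanked by long terminal repeats (LTRs), and L1 elements are LINEs, which lack them. A copy lying in or near a gene can drive or contribute to that gene's transcript when it is not silenced.

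The libraries differed in depth and composition. Total fragments ranged from 5194238 in Dnmt3L KO replicate 1 to 14578341 in Dnmt3L KO replicate 2, with 6997379 and 12295893 in Pld6 KO replicates 1 and 2. Reads of the ribosomal RNA precursor Rn45s took 8.063% of Pld6 KO replicate 1 and 8.273% of WT replicate 1, and at most 0.301% of the other 4 L/Z libraries. Levels are given as CPM, fragment counts divided by library size after TMM scaling. A gene was called when edgeR's quasi-likelihood test gave a Benjamini-Hochberg false discovery rate (FDR) below 0.05 and a fold change above 2.

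The targeted genes followed the labels. Pld6 had no fragment in either Pld6 KO library and stood at 12.6 and 18.7 CPM in the Dnmt3L KO libraries, at least 46.5-fold higher when 3 fragments per library are taken as the floor (edgeR FDR = 0.000882). WT libraries had 29.1 and 29.9 CPM. Dnmt3l had no fragment in either Dnmt3L KO library and only 6 and 10 fragments in the Pld6 KO libraries, at least 2.04-fold lower, with an edgeR FDR of 0.134. Dnmt3l was near the detection limit in WT L/Z spermatocytes as well, with 19 and 11 fragments.

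Of 14662 genes tested, 6 were called higher in Dnmt3L KO, which is 0.0409% of them, and 1 was called lower, which is 0.00682%. Besides Pld6 itself, the genes called higher were Slit2, Anxa3, Apoh, Cdh19 and Eps8l1, and the gene called lower was Myh4. At an unadjusted p of 0.05, 1326 genes were higher (9.04%) and 1241 lower (8.46%), and these shares serve below as the background for each group of genes. The plot of fold change against mean level shows the 7 called genes away from the main cloud, together with several genes that were not called.

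**Figure D1:**
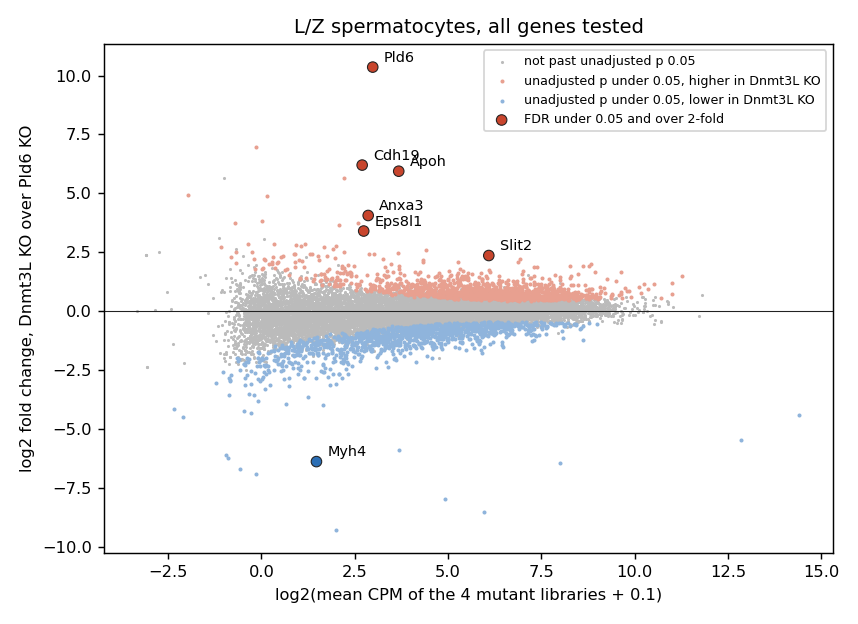
Each point is 1 of the 14662 genes tested, with the log2 of the mean CPM of the 4 mutant libraries plus 0.1 on the x axis and the fitted log2 fold change of Dnmt3L KO over Pld6 KO on the y axis. Large marked points are the 7 called genes, 6 above and 1 below the zero line.

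RefSeq promoters of Slit2, Apoh and Myh4 on GRCm38.p6 are shown because CpG methylation is the mark that DNMT3L helps to deposit. Each run holds the 250 bases before the start used in the RefSeq promoter table, 5′ to 3′ on the gene's strand, with every CpG (CG) in capitals. Slit2 lies at chr5:47982905-47983154, Apoh at chr11:108395047-108395296 and Myh4 at chr11:67237562-67237811, all on the plus strand. The Slit2 window lies inside the annotated gene, which begins at position 47981291.
Slit2: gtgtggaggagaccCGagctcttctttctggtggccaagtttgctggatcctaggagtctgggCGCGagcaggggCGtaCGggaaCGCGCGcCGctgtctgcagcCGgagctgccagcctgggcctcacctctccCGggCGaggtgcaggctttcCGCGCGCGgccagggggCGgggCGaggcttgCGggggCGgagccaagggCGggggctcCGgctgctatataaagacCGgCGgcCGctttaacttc
Apoh: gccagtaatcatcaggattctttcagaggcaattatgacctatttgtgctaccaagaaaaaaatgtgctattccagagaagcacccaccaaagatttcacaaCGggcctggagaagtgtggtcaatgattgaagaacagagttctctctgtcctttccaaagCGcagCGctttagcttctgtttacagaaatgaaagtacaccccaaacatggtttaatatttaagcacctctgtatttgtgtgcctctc
Myh4: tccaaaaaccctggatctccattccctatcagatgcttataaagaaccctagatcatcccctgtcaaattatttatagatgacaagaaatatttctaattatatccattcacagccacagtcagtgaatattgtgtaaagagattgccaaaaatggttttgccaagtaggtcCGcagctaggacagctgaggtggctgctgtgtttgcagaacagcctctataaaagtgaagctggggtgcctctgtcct
Slit2 held 25 CpGs in this window, Apoh 3 and Myh4 1. Of 27025 promoter windows of that length, 10.3% held at least as many CpGs as Slit2, 70.4% at least as many as Apoh and 91.7% at least as many as Myh4. Of the other called genes, Eps8l1 had 3 windows with 14, 7 and 3 CpGs and Pld6 had 2 with 21 and 14, not printed here. The study placed the IAP copy of Apoh within the gene and that of Slit2 upstream of it. Whether the transcripts began at the windows shown was not measured. In Dnmt3L KO spermatogonia, the study found significantly lower promoter methylation at only a small part of the genes raised in spermatocytes. Methylation at the windows shown was not examined here.

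Genes linked to an IAP copy had the highest median difference of the 22 gene lists examined. Their summed level was 222 and 173 CPM in Dnmt3L KO, 33.1 and 22.2 in Pld6 KO and 32.9 and 37.1 in WT. The study listed 8 genes with a nearby IAPEZ insertion among those raised against WT, and these same libraries chose them. Its text counts IAP-linked genes among those raised in Dnmt3L KO and counts none for Pld6 KO. It also describes an intronic IAP copy of Slc15a2 that appeared to drive this gene in both mutants, far less in Pld6 KO. The direction, the rank of this list and its share of higher genes are therefore not independent evidence. In the Dnmt3L KO minus Pld6 KO contrast, 4 of the 8 were called higher (Slit2, Apoh, Cdh19 and Eps8l1) and 8 of 8 were higher at an unadjusted p of 0.05, against the 9.04% of all genes. Their median log2 difference was 4.33, against -0.00 for all genes tested.

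Slit2 encodes a secreted ligand of ROBO receptors. It stood at 122 and 106 CPM in Dnmt3L KO, 24.3 and 20.2 in Pld6 KO and 31.3 and 34.2 in WT. Both Pld6 KO libraries lay below WT and both Dnmt3L KO libraries above it. The log2 fold change was 2.36 ± 0.23 (SE, n = 2 against 2; edgeR FDR = 0.00365).

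Apoh encodes apolipoprotein H, a plasma protein made mainly in the liver. Its levels were 25.2 and 24.5 CPM in Dnmt3L KO, 1.02 and 0.0 in Pld6 KO and 0.0 and 0.085 in WT. The fitted log2 fold change was 5.94 ± 0.82 (edgeR FDR = 0.047). Both Dnmt3L KO libraries lay far above the other 4.

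Cdh19, which encodes a cadherin, had 76 and 141 fragments in Dnmt3L KO against 2 and 1 in Pld6 KO and 5 and 0 in WT. Its ratio was 74.6 (exact 95% counting interval 25.2 to 364). The edgeR FDR was 0.047. Eps8l1, a relative of the actin regulator EPS8, stood at 12.6 and 11.4 CPM in Dnmt3L KO and 1.45 and 0.867 in Pld6 KO (log2 fold change 3.40 ± 0.49, edgeR FDR = 0.047). WT had 0.508 and 0.425 CPM, and the groups did not overlap.

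The other 4 members did not reach the FDR. E330017A01Rik had 58 and 85 fragments in Dnmt3L KO, 2 and 1 in Pld6 KO and none in WT, with an edgeR FDR of 0.0556. Plac8l1 had 10 and 26 fragments against 1 and 0. Capn11, which encodes a calpain protease, varied within Dnmt3L KO, at 19.4 and 2.43 CPM against 1.60 and 0.158 in Pld6 KO. Slc15a2, which encodes a peptide transporter, stood at 14.0 and 10.4 CPM against 4.07 and 0.789. These members did not overlap between the mutants either, but Capn11 and Slc15a2 differed between replicates of a genotype by several fold. The dot plot of values by library shows all 8.

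**Figure D2:**
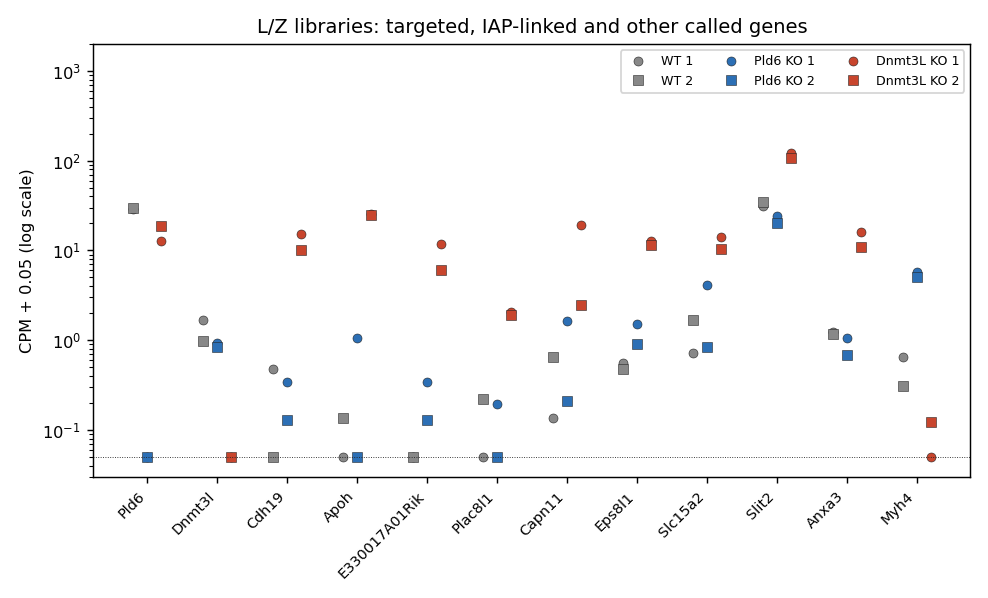
CPM plus 0.05 on a log axis for each of the 6 L/Z libraries, for the targeted genes, the 8 IAP-linked genes, Anxa3 and Myh4. Circles are replicate 1 and squares replicate 2, and points on the dotted line have no fragment. Every Dnmt3L KO point of an IAP-linked gene lies above both Pld6 KO points.

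Genes linked to an L1 copy had a smaller median difference. The study chose them on the same libraries, but counted L1-linked genes among those raised in either mutant. It counted IAP-linked genes for Dnmt3L KO only, so the medians of these lists are not alike in their selection. None of the 22 was called, and 10 of 22 were higher at an unadjusted p of 0.05, with none lower. Their median log2 difference was 0.76, which was 0.48 without Dnmt3L KO replicate 1, and 14 of 22 did not overlap between the mutants, where 26.9% of all genes were higher in both Dnmt3L KO libraries than in both Pld6 KO libraries. Their summed level was 2472 and 1669 CPM in Dnmt3L KO, 939 and 1306 in Pld6 KO and 450 and 552 in WT, so that both Pld6 KO libraries lay above WT. Reg2, which encodes a regenerating protein of the pancreas, had no fragment in WT, 9.45 and 2.92 CPM in Pld6 KO and 41.6 and 30.9 CPM in Dnmt3L KO (log2 fold change 2.60 ± 0.49, edgeR FDR = 0.0932). Gc, the vitamin D binding protein of plasma, likewise had none in WT, 9.74 and 8.60 CPM in Pld6 KO and 26.0 and 28.4 CPM in Dnmt3L KO. The mutants did not overlap for either gene.

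Other L1-linked genes had the same order. Col4a5, a collagen IV chain, stood at 70.4 and 29.6 CPM in Dnmt3L KO and 18.9 and 15.5 in Pld6 KO. Poln, which encodes a DNA polymerase, stood at 111 and 82.2 CPM against 33.9 and 38.9. For Caps2, a calcium-binding protein, the values were 27.6 and 14.7 CPM against 6.69 and 11.4, and for Greb1l they were 126 and 99.9 CPM against 59.2 and 49.9. Afm, encoding a vitamin E-binding plasma protein, and Tecrl did not separate. Afm had 13.6 and 5.22 CPM in Dnmt3L KO and 5.09 and 5.91 in Pld6 KO, and Tecrl had 7.2 and 4.72 against 3.63 and 4.73. The unadjusted p was 0.192 for Afm and 0.454 for Tecrl.

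The remaining 9 genes, linked to MERVK, RLTR10 or MMERGLN copies, moved in both directions. These same libraries chose them too. Besides L1-linked genes, the study counted RLTR10-linked genes in Pld6 KO and MERVK10/RLTR10- or MMERGLN-linked genes in Dnmt3L KO. The direction of a member is thus not independent of the mutant in which it was listed. At an unadjusted p of 0.05, 7 were higher and 1 lower, with none called. 2310043L19Rik had 11 and 14 fragments in Dnmt3L KO and none in any Pld6 KO or WT library, at least 4.76-fold higher. Olfr1372-ps1, an olfactory receptor pseudogene, stood at 20.2 and 11 CPM against 3.34 and 3.31. Cd300c, an immune receptor linked to RLTR10, had 2 and 4 fragments in Dnmt3L KO and 7 and 28 in Pld6 KO, with none in WT. Tmc2, the other gene linked upstream to RLTR10, was close in both, at 6.20 and 4.08 CPM against 7.85 and 6.07, and WT had 0.169 and 0.340 CPM.

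Anxa3 and Myh4 were called without a listed insertion. Anxa3, encoding an annexin, stood at 16 and 11 CPM in Dnmt3L KO and 1.02 and 0.631 in Pld6 KO, the latter within 2-fold of the 1.19 and 1.11 CPM in WT. Its log2 fold change was 4.06 ± 0.51 (edgeR FDR = 0.0278). Myh4 encodes a fast skeletal muscle myosin heavy chain. It had 39 and 63 fragments in the Pld6 KO libraries against 0 and 1 in those of Dnmt3L KO and 7 and 3 in WT, a mutant ratio of 98.9 (exact 95% counting interval 17.4 to 3950; edgeR FDR = 0.047). Myh4 lies 7.45 Mb from the targeted Pld6 locus on chromosome 11. Its neighbours Myh3, Myh8 and Myh2 were also lower in Dnmt3L KO at an unadjusted p of 0.05. Myh3 stood at 0.2 and 1.5 CPM in Dnmt3L KO and 5.82 and 7.25 in Pld6 KO, the latter below the 7.88 and 8.84 CPM in WT, whereas both Pld6 KO libraries exceeded WT for Myh4. Reads of these similar genes may be divided among them by the authors' counting.

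Within 10 Mb of Pld6, 28 of 241 genes were lower at an unadjusted p of 0.05 (11.6%), against 9.35% of the rest of chromosome 11. Within 10 Mb of Dnmt3l on chromosome 10, 39 of 235 genes were lower (16.6%) and 10 higher (4.26%), against 13.1% and 8.73% of the rest. This window was chosen after the values had been seen, and the shares were not tested.

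Over all genes tested, 26.9% were higher and 26.2% lower without overlap between the mutants. Among these, 1245 higher and 993 lower genes were not called but had an unadjusted p below 0.05 and a mean of at least 50 fragments in the higher mutant. The largest positive differences outside the lists were in Kcnh1, a voltage-gated potassium channel, with 17.2 and 10.4 CPM in Dnmt3L KO and 1.74 and 0.0789 in Pld6 KO, and in 1300002K09Rik, with 10.8 and 4.22 CPM against 1.16 and 0.158. Cd209d, Nrros and the X-linked genes 1700042B14Rik, Gm16390 and G530011O06Rik had log2 differences between 2.43 and 2.75. Among the largest negative differences was that of Bcl11b, a transcription factor needed for T cell development, which had 4 and 2 fragments in Dnmt3L KO, 35 and 79 in Pld6 KO and 83 and 119 in WT (edgeR FDR = 0.0623). Tbx3, Foxn4 and Barhl2 had log2 differences of -2.67, -2.66 and -3.12, and Apc2, Nav3, Tbc1d30 and Slc38a1 lay between -2.67 and -3.09. Gm15023 had no fragment in Dnmt3L KO, against 103 and 7 in the Pld6 KO libraries. WT had 153 and 0. Its high libraries were the 2 that were rich in Rn45s, and the part of that difference in the result was not tested.

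Most markers of L/Z spermatocytes were higher in Dnmt3L KO at an unadjusted p. Of 16 L/Z spermatocyte markers, 14 were higher at an unadjusted p of 0.05 and none was called or lower, with a median log2 difference of 1.15, which was 0.73 with a library factor for Rn45s. Dmc1, the meiotic recombinase, stood at 456 and 434 CPM in Dnmt3L KO, 147 and 187 in Pld6 KO and 118 and 232 in WT. Spo11, which makes the meiotic DNA breaks, stood at 76.8 and 59.0 CPM against 22.1 and 28.3, and the histone methyltransferase Prdm9 at 394 and 334 against 141 and 185. Tex101, a germ cell surface protein, stood at 1390 and 1030 CPM against 384 and 376. These 4 genes were named for having the smallest unadjusted p of the list. All 16 markers were higher in both Dnmt3L KO libraries than in both Pld6 KO libraries, as were 26.9% of all genes tested.

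Structural genes of the meiotic chromosome axis were also mostly higher. This list shares Sycp1, Sycp2, Sycp3, Hormad1, Smc1b and Stag3 with the L/Z markers, so it is not a separate group. Of 17 synaptonemal complex and axis genes, 11 were higher and 1 lower, the lower one being the mitotic cohesin subunit Rad21. Sycp3, an axial element protein, stood at 1020 and 1040 CPM in Dnmt3L KO and 285 and 564 in Pld6 KO, and Hormad1, an axis protein that monitors synapsis, at 990 and 779 against 232 and 447. Of 29 meiotic recombination genes, 14 were higher and none lower. Dmc1, Spo11, Prdm9, Meiob and Rad51ap2 among the higher ones are L/Z markers already counted above. Hfm1, a helicase for crossover formation, stood at 357 and 367 CPM against 132 and 160. Pld6 KO replicate 1 was the lowest mutant library for Sycp3, Hormad1 and Hfm1.

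Spermatogonia and Sertoli cell markers were lower in part. Of 26 spermatogonia markers, 8 were lower at an unadjusted p of 0.05 and none higher, with a median log2 difference of -0.59, which was -0.27 without Dnmt3L KO replicate 1 and -1.20 without replicate 2. Sall4, a pluripotency factor of undifferentiated spermatogonia, stood at 28.2 and 70.3 CPM in Dnmt3L KO and 153 and 95.3 in Pld6 KO. Zbtb16, which maintains spermatogonial stem cells, stood at 27.0 and 65.6 CPM against 165 and 88.2. Of 17 Sertoli cell markers, 8 were lower and 1, the X-linked Rhox5, was higher. Wt1, a transcription factor of these supporting cells, stood at 18.0 and 9.30 CPM in Dnmt3L KO and 38.7 and 31.6 in Pld6 KO. The libraries that were lowest for spermatogonia and for Sertoli markers were not the same one, being Dnmt3L KO replicate 1 and replicate 2, respectively.

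**Figure D3:**
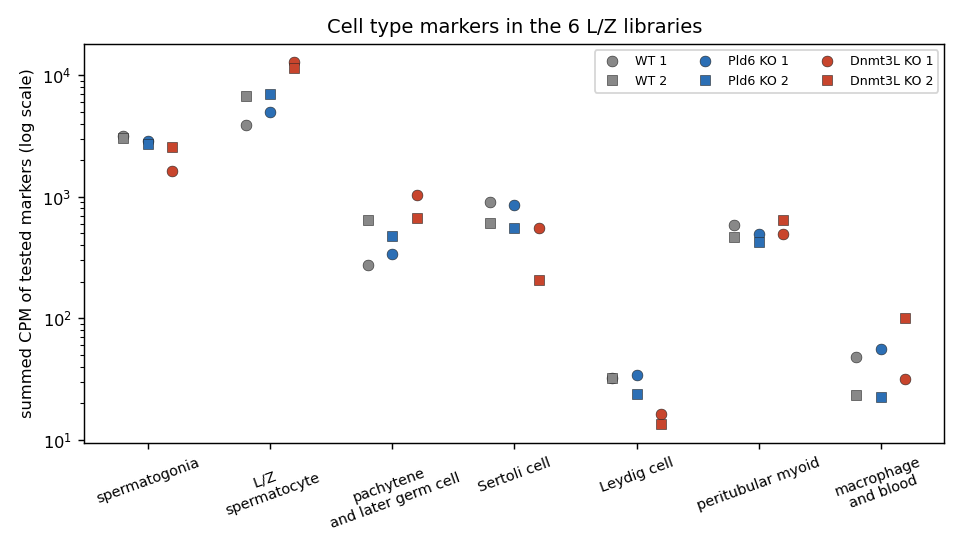
Summed CPM, on a log axis, of the tested members of each cell type marker list in the 6 L/Z libraries. L/Z spermatocyte markers sum to 12794 and 11398 in Dnmt3L KO and to 4987 and 7002 in Pld6 KO, while Sertoli cell markers sum to 550 and 205 against 856 and 555.

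These marker levels check the label and accompany every result above. All 16 L/Z markers were detected in each library, and WT summed to 3902 and 6733 CPM. Spermatogonia markers summed to 1634 and 2557 CPM in Dnmt3L KO and 2847 and 2704 in Pld6 KO. Leydig cell markers summed to 16.4 and 13.4 against 34.3 and 23.8. Only 5 of 10 Leydig markers were tested, with 2 lower and none higher at an unadjusted p of 0.05. Cyp17a1, Insl3, Lhcgr, Hsd17b3 and Hsd3b6 had too few fragments to be tested. Peritubular myoid markers had a positive median log2 difference of 0.41, with 1 of 11 higher at an unadjusted p of 0.05 and none lower, and macrophage and blood markers one of 1.09, with none of 12 past that p. Both medians turned negative, to -0.08 and -0.86, without Dnmt3L KO replicate 2. Of the markers of later germ cells, 4 of 19 tested were higher and 2 lower, and the spermatid genes Prm2 and Catsper1 had no fragment in any mutant library. Whether a marker list reflects the number of such cells or RNA per cell cannot be told apart in bulk RNA, and the part of these differences in the results was not tested.

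Genes of the silencing pathways themselves did not share a direction. Of 25 piRNA pathway genes, 4 were higher, Pld6 among them, and 5 lower. Piwil1, the PIWI protein of later spermatocytes, stood at 6.20 and 6.66 CPM in Dnmt3L KO and 12.4 and 19.2 in Pld6 KO, both below the 30.2 and 33.2 CPM in WT. Gpat2, a mitochondrial partner of PIWI proteins, stood at 348 and 260 CPM against 195 and 137. Piwil2, which binds retrotransposon piRNAs in fetal and early meiotic germ cells, was nearly level at 489 and 401 against 422 and 514. Of 19 DNA methylation genes, 5 were lower, the targeted Dnmt3l among them, and none higher. Dnmt3a stood at 93.2 and 124 CPM against 159 and 158, and Dnmt1, the maintenance enzyme, at 369 and 456 against 600 and 602. Of 22 genes of H3K9 methylation and silencing, 4 were higher and 1, the methyltransferase gene Ehmt2, lower, at 237 and 302 CPM against 401 and 379.

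Of 24 germline genes that promoter methylation silences in somatic cells, 10 were higher and 2 lower at an unadjusted p of 0.05. Dpep3, a dipeptidase expressed in the testis, stood at 628 and 345 CPM in Dnmt3L KO and 135 and 126 in Pld6 KO. Several of these genes, such as Sycp3, Hormad1 and Tex101, are also on the meiotic lists above. Of 21 Rhox homeobox genes tested, an X-linked cluster with closely similar members, 6 were higher and none lower. Rhox3f stood at 3.8 and 3.72 CPM against 0.436 and 0.552, though its reads may be shared with near-identical copies.

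None of 9 imprinted genes with paternal methylation passed an unadjusted p of 0.05, and their median log2 difference was -0.57, with 7 of 9 negative. H19 varied more within Dnmt3L KO, at 14.8 and 48.5 CPM, than between its mean and that of Pld6 KO, at 68.5 and 43.9. Of 32 maternally methylated genes, 1 was higher and 2 were lower, with a median of -0.04. Peg10 was among the lower ones, with 25.2 and 14.2 CPM against 73.7 and 42.4. Among 20 interferon-stimulated genes, 2 were higher and none lower, and among 25 p53 target and apoptosis genes 1 was higher and 4 lower. Muscle genes were lower in 5 of 19 and higher in none. Those lower were Ryr1 and the neighbouring myosin genes Myh2, Myh3, Myh4 and Myh8 described above, whose reads may be shared.

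**Figure D4:**
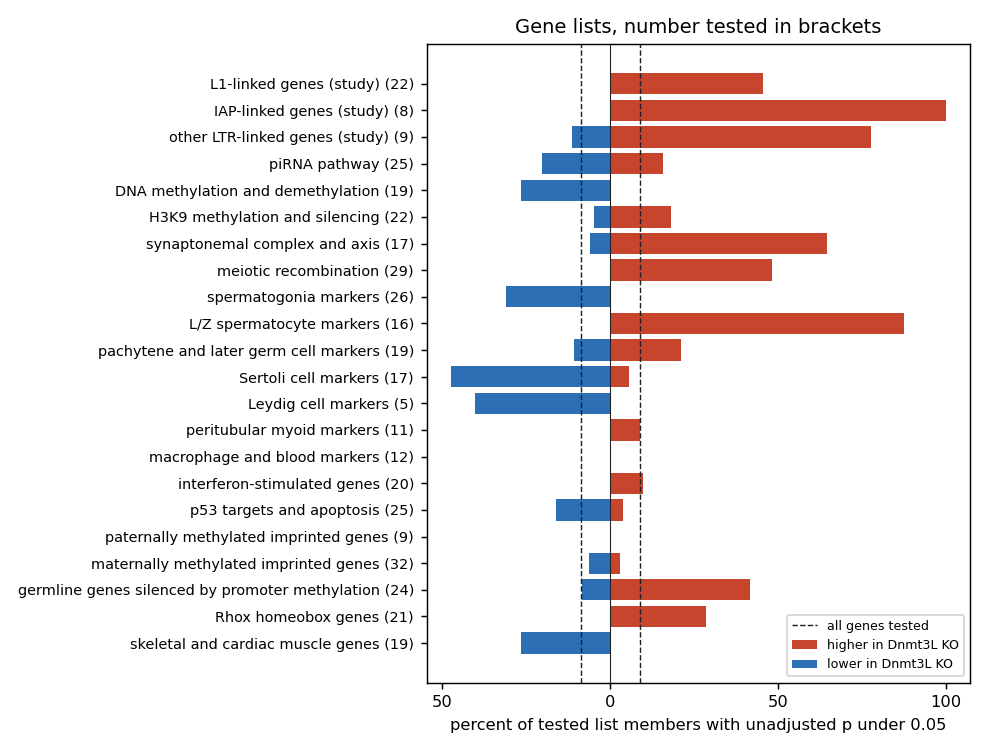
Percent of the tested members of each list with an unadjusted p under 0.05, higher in Dnmt3L KO to the right and lower to the left, with the number tested in brackets. Dashed lines mark all 14662 genes, 9.04% higher and 8.46% lower.

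The shares of sex-linked genes were noticed after the values had been seen and were not tested. Of 614 X-linked genes tested, 134 were higher (21.8%) and 25 lower (4.07%), and their summed level was 38495 and 37080 CPM in Dnmt3L KO, 28266 and 30614 in Pld6 KO and 27547 and 26190 in WT. Of 12 Y-linked genes, 8 were higher and none lower. Among the 8 were Rbmy, Gm21693, Gm21704 and Gm21708, which lie near each other and had similar levels in Dnmt3L KO. Reads may be shared among them, so they may not count as separate genes. Usp9y, a deubiquitinase gene, stood at 196 and 172 CPM against 92.2 and 104. Autosomes ranged from 5.87% to 12.6% higher. The median log2 difference of X-linked genes was 0.22, or 0.10 with an offset for gene GC content and length. For Y-linked genes it was 0.71, or 0.38 with that offset.

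**Figure D5:**
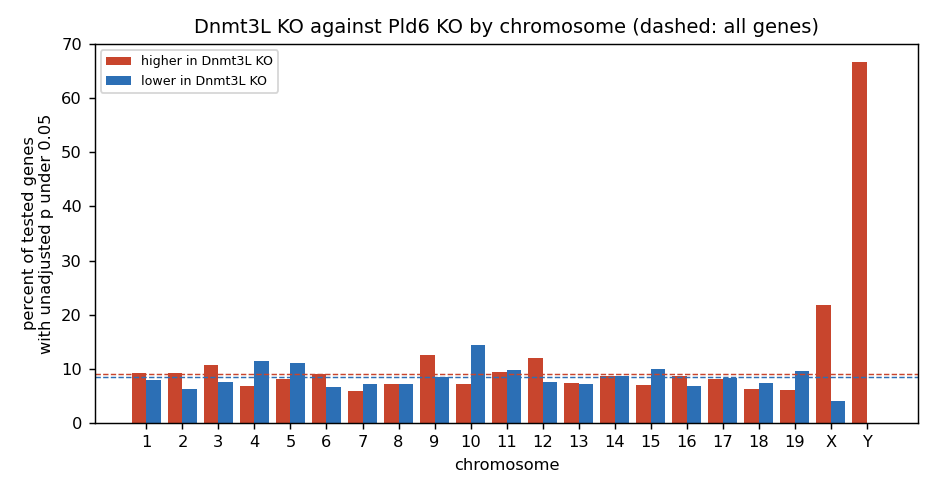
Percent of tested genes on each chromosome with an unadjusted p under 0.05, higher or lower in Dnmt3L KO, with dashed lines for all genes. Chromosome X reaches 21.8% higher, chromosome Y 66.7% and chromosome 10 has 14.4% lower.

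The Mage and H2 families were noticed after the values had been seen. Of 19 tested Mage genes, most of them X-linked and related to cancer-testis antigens, 11 were higher and none lower. Magea5 stood at 54.2 and 67.2 CPM in Dnmt3L KO, 23.4 and 20.7 in Pld6 KO and 23.9 and 24.7 in WT (log2 fold change 1.47 ± 0.24, edgeR FDR = 0.0623). Magea10 stood at 33.8 and 47.3 CPM against 13.7 and 12.6, and Magea4 at 25.6 and 26.5 against 8.29 and 8.44. Maged1 and Mageb4 were level, at 431 and 402 CPM against 478 and 402 and at 237 and 353 against 329 and 298. Magea genes are near-identical in places, and how reads were divided among them is uncertain.

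Genes of the H2 complex, the mouse major histocompatibility locus on chromosome 17, formed the other family. Of 23 tested, 10 were higher and none lower, all 10 class I or class I-like. H2-K1 stood at 857 and 603 CPM in Dnmt3L KO and 202 and 165 in Pld6 KO, with 182 and 393 in WT (log2 fold change 1.99 ± 0.35, edgeR FDR = 0.0639). H2-D1 stood at 114 and 97.6 CPM against 40.3 and 22.8. Class II genes were mixed, with H2-Ab1 at 14.6 and 17.8 CPM against 10.8 and 7.49 and H2-Aa at 0.600 and 4.01 against 3.78 and 0.946. Blood and macrophage markers summed to 31.6 and 100 CPM in Dnmt3L KO and 56.4 and 22.6 in Pld6 KO, overlapping between the mutants. H2 genes share sequence, which leaves single members uncertain.

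In newborn testes, where the same mutants were compared in other libraries, no gene of 15901 was called (0%), with 1026 higher (6.45%) and 1337 lower (8.41%) at an unadjusted p of 0.05. DESeq2's Wald test called 124. Pld6 came closest, at 5.79 and 1.82 CPM in Dnmt3L KO and 0.0 to 0.201 in the 4 Pld6 KO libraries (edgeR FDR = 0.0514). Of the 1265 genes higher in Dnmt3L KO L/Z spermatocytes at that p and tested at P0, 938 had the same direction there (74.2%), as had 944 of 1208 lower ones (78.1%), while 49.9% of all genes tested at both stages were higher at P0. The median P0 differences were 0.20 and -0.29, against 0.78 and -1.01 in L/Z spermatocytes.

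The IAP-linked genes did not keep their L/Z values at P0. Of 6 tested there, 2 (Apoh and Eps8l1) were higher and 1 (Slc15a2) lower at an unadjusted p of 0.05. Of all genes tested at P0, 6.45% were higher and 8.41% lower. The median log2 difference of the 6 was 0.87. Apoh stood at 0.789 and 1.82 CPM in Dnmt3L KO and 0.171 to 0.604 in Pld6 KO. Eps8l1 stood at 2.46 and 6.51 CPM against 0.704 to 1.82, with 5.69 and 8.31 in WT. Slit2 overlapped between the mutants, at 133 and 222 CPM against 151 to 181. Slc15a2 was higher in Pld6 KO on average, with 1.54 to 23.0 CPM against 1.58 and 2.43 in Dnmt3L KO (unadjusted p = 0.0292 and edgeR FDR = 0.296). Myh4 ranged from 0.0826 to 4.13 CPM in the 4 Pld6 KO libraries and stood at 0.789 and 2.17 in Dnmt3L KO. The stages also differ in tissue, since whole testes at P0 are mostly somatic cells, and the difference between stages was not tested.

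The number of L/Z calls depended on single libraries, those of WT included. Leaving out Dnmt3L KO replicate 1 left 1 called gene and leaving out replicate 2 left 0, with 2586 genes at an unadjusted p below 0.05 in the latter, whereas leaving out Pld6 KO replicate 1 or 2 gave 33 or 137. With an offset for GC content and length, 2 genes were called, Pld6 and Slit2. Anxa3, Apoh, Cdh19, Eps8l1 and Myh4 then had edgeR FDRs from 0.0724 to 0.102. With the library factor for Rn45s, 25 genes were called.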

How the data were processed

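RNA-seq of L/Z spermatocytes (6 libraries) and P0 testes (11 libraries) was deposited as 1 table per stage. The authors aligned reads to mm10 with TopHat2 and ran Cuffdiff (versions not given in the sources used here), and the deposited raw fragments are estimated counts per gene, of which 97.8% were whole in L/Z. They were rounded here. The deposited FPKM values served only in an alternative. Of 23980 genes, 23974 had status OK in every L/Z library.

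Genes passing edgeR's filterByExpr (edgeR 4.0.16, R 4.3.3) were tested by glmQLFit and glmQLFTest with TMM scaling, over all libraries of a stage, for Dnmt3L KO minus Pld6 KO. Alternatives used DESeq2 1.42.0 and limma 3.58.1. The test was tested on simulated data. Intervals and floors (3 fragments) cover counting error only, and p-values measure the spread between these libraries. Lists are given by counts and medians, with no set test.

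The members and lists were chosen with earlier results of these data known. Named were the targeted genes, every called gene, the 10 largest differences each way among uncalled genes with non-overlapping libraries, unadjusted p under 0.05 and a mean of 50 fragments, up to 4 genes per list by p with all IAP- and LTR-linked genes, 5 genes the study describes, and Rn45s. Other genes named, the Mage, H2 and sex-linked genes and the windows around targeted loci were chosen after their values were seen. Promoters are RefSeq's (GRCm38.p6). Cdh19 and Anxa3 had no entry in that table. Replicate numbers were not used as pairs in the main fit. Deviations of same-numbered Pld6 KO and Dnmt3L KO libraries correlated at -0.135 and of WT and Dnmt3L KO at -0.144. Those of WT and Pld6 KO, whose replicate 1 is rich in Rn45s in both, correlated at 0.485. Each pair of genotypes gives a single comparison, so these values cannot settle whether samples were paired. The values of 1 gene are not reported here.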

Additional observations from a re-analysis of the deposited data

Results flagged for a closer look

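Among the genes whose P0 values were examined, the highest Pld6 KO library stood apart from the other 3 for 2 genes. Myh4 was at 4.13 CPM in that library and at most 0.599 in the others, and Slit2 was at 181 CPM against at most 156. Chance flags about 1 in 20 groups in this way, and 10 genes were examined.

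The P0 testes lacking both genes (DKO, 3 libraries) were on neither side of the P0 comparison, though they entered its estimate of spread. Apoh stood at 1.75 CPM ± 0.594 (SD, n = 3) in them and at 0 in both WT libraries. Myh4 stood at 1.02 CPM ± 0.470 (SD, n = 3) against a WT mean of 0.254, and Capn11 at 4.28 CPM ± 3.50 (SD, n = 3) against 0.465. All 3 DKO libraries were above both WT libraries for each of the 3 genes.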

How the results depend on the processing

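The number of called L/Z genes, 7 as reported, was 3 with DESeq2 size factors, 193 without a filter on low counts, 358 by DESeq2's Wald test, 181 with only the 2 groups compared, 2 with a mean of at least 50 fragments, 25 with a factor for Rn45s-rich libraries and 2 with the GC and length offset. With limma on FPKM it was 8 (pseudocount 1) and 6 (0.1). It ranged from 0 to 215 when 1 library was left out. All 7 remained called without a filter, with only the 2 groups and without either WT or either Pld6 KO library, and 5 of 7 by the Wald test. The replicate block gave 4 calls and the block with the GC and length offset 2. Crossing the numbers of the Dnmt3L KO libraries in the block, chosen after seeing the data, gave 516, and leaving out both Rn45s-rich libraries gave 100. Without a fold threshold it stayed at 7. The cause of these changes was not tested.

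At P0, the count of 0 became 5 with DESeq2 size factors, 24 without a filter, 124 by the Wald test, 1 with only the 2 groups and 0 with the replicate block, and ranged from 0 to 114 when 1 library was left out, the highest without Dnmt3L KO replicate 2.

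The median log2 difference of IAP-linked genes ranged from 3.33 to 6.28 when 1 mutant library was left out, that of spermatogonia markers from -1.20 to -0.27, of L/Z markers from 0.84 to 1.46 and of Sertoli markers from -2.01 to -0.55. For L/Z markers it was 0.73 with the Rn45s factor and 0.81 with the GC and length offset. Of 111 named genes, 5 changed sign when 1 mutant library was left out, with log2 differences from -3.61 to 5.10 for Hsd3b1, -5.72 to 1.73 for Cyp11a1, -0.62 to 1.48 for Tpm2, -1.10 to 2.77 for C1qc and -0.10 to 1.30 for Afm. With 2 libraries a genotype, an exact permutation test over libraries cannot go below 0.333. Gene GC content ran with level differently by library (Spearman across genes -0.261 and -0.434 in Dnmt3L KO against 0.192 and -0.221 for Pld6 KO), and its part in the results was not tested.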
